A study of Mus musculus with 30 samples.

Results

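The response of open chromatin to CK666 was compared between mouse bone marrow mesenchymal stem cells (MSCs) and NIH3T3 cells 4 h after addition of the drug. The unit of measurement was a consensus region of accessibility, called a window here, and a window was included when its mean count was 20 or more over the 6 libraries of each cell type. Of 369846 windows in the 4 h table, 141767 met this limit in both cell types. Another 60458 met it in MSCs alone, 55379 in NIH3T3 alone and 112242 in neither, and these were fitted where they passed the filter on low counts but are not described. The groups were untreated MSCs, MSCs with CK666, untreated NIH3T3 and NIH3T3 with CK666, with 3 ATAC-seq libraries each. The labels give the strain C57BL/6J and male sex for both cell types, no age and no dose of CK666, and call NIH3T3 embryonic fibroblast cells. The methods state that the MSCs came from the marrow of several C57BL/6J mice and that NIH3T3, an established line, came from ATCC. The strain and sex of NIH3T3 are printed as labelled and were not checked. No transgene or allele differs between the groups by the labels, but the cell types differ in origin and history, so that any effect of a cell type is an effect of these cultures. Nothing states that the replicates were separate cultures, and p-values therefore measure the spread between these libraries alone.

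CK666 blocks the Arp2/3 complex, which starts new actin filaments as branches on existing ones. ATAC-seq counts the places where a transposase can enter chromatin, so that a higher count means a more open site. Several transcription regulators are known to read the state of actin. The cofactor MRTF is held by monomeric actin and, when released, acts with SRF at CArG boxes near genes of the contractile cytoskeleton. YAP and TAZ act with TEAD factors near genes such as Ccn2, and AP-1 factors (Fos and Jun) bind many distal enhancers of fibroblasts and MSCs. Windows were read for these motifs and for genes of these pathways. In bulk libraries, fewer cells with an open site and less opening per cell cannot be told apart.

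The 12 libraries held between 14496058 and 34979833 counts in all windows. The shallowest was NIH3T3 CK666 replicate 1, with 77.6% of its counts in the windows described, while the other 11 libraries had 79.5% to 84.8%. Rank correlations between replicates were 0.94 to 0.96 in the other 3 groups and 0.89 to 0.92 in NIH3T3 CK666. The labels were checked at the Cdkn2a start site, a locus known to be deleted in NIH3T3: the control libraries had 532 to 622 normalised counts in MSCs and 0 to 2.16 in NIH3T3. Start-site windows of haematopoietic markers, which could betray marrow cells, summed to 610 to 726 in MSC controls and 834 to 900 in NIH3T3 controls, where Cd34 alone had a mean of 409. None of the 7 haematopoietic markers with such a window reached the median start-site window in MSCs (281), and 1 of 7 did in NIH3T3 (217). Endothelial markers summed to 178 to 210 in MSCs and 84.2 to 155 in NIH3T3, and no epithelial marker had a start-site window. Of 9 MSC markers with such a window, 6 lay at or above the median in each cell type, as did 6 of 9 fibroblast markers. Thy1 was at 0 to 2.02 in MSC controls and at 54.7 to 84.2 in NIH3T3 controls. These markers did not separate the cell types by name, and their part in the results was not tested.

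The sequences below are the central 300 bases of windows that the results turn on, read from the plus strand of mm10 (GRCm38). The Thbs1 window lost accessibility in MSCs and gained it in NIH3T3, and capitals mark the TEAD letters, GGAATG or CATTCC on the other strand. The Adh7, Uggt1 and Tmprss11f windows had a lower response in NIH3T3 than in MSCs, and capitals mark the AP-1 letters TGANTCA and, in Adh7, also TEAD letters. The Fbxl18 window was lost in both cell types, and capitals mark a CArG box, which is CC, then A or T at each of the middle positions, then GG. A match is a description of letters and not a bound site.
Thbs1 chr2:118128015-118128314: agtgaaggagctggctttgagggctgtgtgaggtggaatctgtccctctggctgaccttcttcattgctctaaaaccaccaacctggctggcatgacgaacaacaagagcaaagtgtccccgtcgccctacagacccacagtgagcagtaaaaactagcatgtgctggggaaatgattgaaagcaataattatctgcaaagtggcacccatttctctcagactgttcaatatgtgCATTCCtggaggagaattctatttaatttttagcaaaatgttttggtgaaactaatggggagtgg
Adh7 chr3:138210485-138210784: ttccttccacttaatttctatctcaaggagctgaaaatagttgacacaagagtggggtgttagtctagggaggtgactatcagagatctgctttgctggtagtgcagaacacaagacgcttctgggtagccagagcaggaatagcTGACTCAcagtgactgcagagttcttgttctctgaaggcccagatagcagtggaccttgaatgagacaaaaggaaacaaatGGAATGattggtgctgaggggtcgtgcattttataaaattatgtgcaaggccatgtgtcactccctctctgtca
Uggt1 chr1:36200397-36200696: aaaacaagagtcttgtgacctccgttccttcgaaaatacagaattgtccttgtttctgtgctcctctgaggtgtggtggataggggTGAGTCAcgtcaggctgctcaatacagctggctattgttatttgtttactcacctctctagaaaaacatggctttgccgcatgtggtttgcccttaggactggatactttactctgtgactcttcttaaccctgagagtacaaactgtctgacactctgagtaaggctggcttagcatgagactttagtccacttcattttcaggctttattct
Tmprss11f chr5:86632348-86632647: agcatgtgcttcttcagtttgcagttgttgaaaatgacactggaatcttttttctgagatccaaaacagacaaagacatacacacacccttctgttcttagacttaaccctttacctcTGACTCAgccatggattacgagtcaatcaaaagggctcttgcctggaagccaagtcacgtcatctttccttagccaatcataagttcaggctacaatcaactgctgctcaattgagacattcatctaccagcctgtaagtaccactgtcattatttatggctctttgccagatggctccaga
Fbxl18 chr5:142898380-142898679: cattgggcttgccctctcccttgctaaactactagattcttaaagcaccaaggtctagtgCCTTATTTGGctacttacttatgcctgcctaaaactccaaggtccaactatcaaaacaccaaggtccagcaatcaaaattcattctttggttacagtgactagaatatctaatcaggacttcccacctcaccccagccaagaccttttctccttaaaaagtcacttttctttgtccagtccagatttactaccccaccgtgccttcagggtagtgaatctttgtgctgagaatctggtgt

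CK666 changed accessibility at more windows in NIH3T3 than in MSCs, and the responses differed at 4309 of the 141767 windows. Changes are given as log2 of CK666 over control, and the difference as the NIH3T3 log2 change minus the MSC log2 change. A window was called at an adjusted p under 0.01 (quasi-likelihood test of edgeR, Benjamini-Hochberg) and a log2 value beyond 1 in either direction. In MSCs 646 windows were gained (0.456% of those described) and 722 were lost (0.509%). In NIH3T3 2743 were gained (1.93%) and 4123 lost (2.91%). The NIH3T3 response lay above the MSC response at 1295 windows (0.913%) and below it at 3014 (2.13%). The same test at an unadjusted p under 0.05 gave 37031 windows with a difference. The median difference over all windows was -0.08, made of a median MSC response of -0.01 and a median NIH3T3 response of -0.10.

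The share of higher against lower calls depended on the scaling. With the normalisation used, 30.1% of the calls had the NIH3T3 response above. When libraries were scaled by total counts, which moved the median difference by 0.106 and the median NIH3T3 response by 0.123, 48.3% did (1954 above and 2093 below). With each library's trend on openness removed it was 52.2%, relative to the median of the surrounding 1 Mb it was 50.1%, and with the windows described fitted alone it was 43.2%. In all of these fits no called window changed direction, and 55.3% to 91.8% of the calls made with the normalisation used were shared. The excess of windows with a lower response in NIH3T3 is thus relative to the scaling, whereas the direction of each call named here is not.

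The windows with a difference were mostly changed in only one of the cell types. Of the 3014 windows below, 1662 were called lost in NIH3T3 and not called in MSCs, with medians of -1.27 and 0.12. A further 1266 were called in neither alone, with medians of -0.80 in NIH3T3 and 0.44 in MSCs. In 77 the window was gained in MSCs and not called in NIH3T3. Of the 1295 windows above, 604 were called gained in NIH3T3 only, with medians of 1.38 there and -0.14 in MSCs. Another 497 were called in neither alone and 176 were lost in MSCs only, with medians of -1.26 in MSCs and 0.21 in NIH3T3. In 16 windows each cell type passed its own test in opposite directions, 8 each way.

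Changes shared by the cell types were gains more than losses. Of windows gained in MSCs, 292 were gained in NIH3T3 too, which is 45.2% of the MSC gains and 10.6% of the NIH3T3 gains. Of windows lost in MSCs, 85 were also lost in NIH3T3, 11.8% of the MSC losses and 2.06% of the NIH3T3 losses. Windows gained in MSCs had the same sign in NIH3T3 in 84.5% of cases and those lost in 74.0%. Windows gained in NIH3T3 had the same sign in MSCs in 74.8%, and those lost in 62.4%. Over all windows described, the cell types had the same sign in 56.0%. The response was positive in 41.0% of them in NIH3T3 and in 48.3% in MSCs, so that gains and losses have different backgrounds. These signs depend on the scaling: the median NIH3T3 response was -0.10, and 0.02 with scaling by total counts.

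Across all windows the responses of the cell types followed each other weakly. Pearson's r between the MSC and the NIH3T3 log2 change was 0.203 over 141767 windows, which share a library set within each cell type and are not independent replicates. It was 0.210 in windows with a transcription start site (TSS) and 0.203 in the others. For single libraries, a response was formed from the CK666 and control libraries of the same number, which names them and does not pair them. Such responses had r of 0.36 to 0.38 with each other within MSCs, 0.43 to 0.54 within NIH3T3, and 0.098 to 0.153 between the cell types. None of these pairs share a library.

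**Figure D1:**
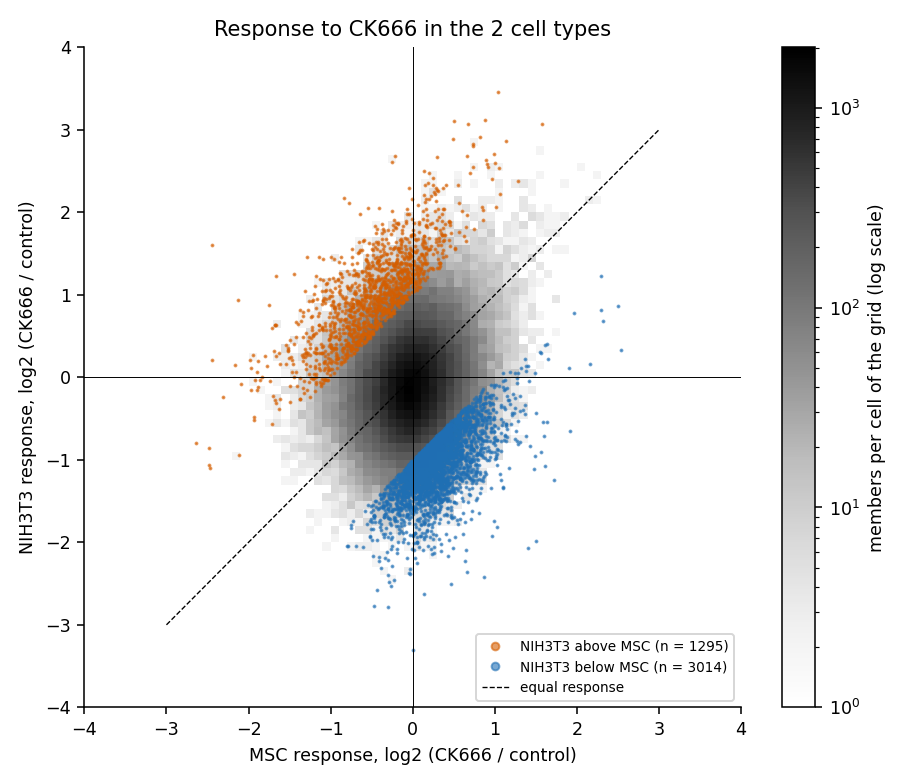
Log2 response to CK666 of each window in MSCs (x axis) and NIH3T3 (y axis), with all 141767 windows as a grey density on a log scale. Coloured points are the 1295 windows with the NIH3T3 response above and the 3014 with it below the MSC response, and the dashed line marks equal responses.

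The largest difference between the cell types was at Thbs1, which encodes thrombospondin-1, a secreted matrix protein. The window at chr2:118125879-118130451 is intergenic and starts 14003 bp from the Thbs1 TSS. Its normalised counts were 1550, 1779 and 1441 in the MSC controls and 325, 296 and 253 with CK666. In NIH3T3 they were 217, 192 and 201 in controls and 531, 726 and 585 with CK666. The groups overlapped in neither cell type, and the change was a loss in MSCs and a gain in NIH3T3. The log2 change was -2.45 (SE 0.11) in MSCs and 1.60 (SE 0.12) in NIH3T3, a difference of 4.05 (SE 0.17, edgeR adjusted p = 2.7e-33). A further 3 windows near Thbs1 had the NIH3T3 response above, and they lay 6055 to 18632 bp from the TSS. Their MSC log2 changes were -1.67, -1.18 and -1.54 and their NIH3T3 changes were 0.64, 0.84 and 0.16. Another window, 32269 bp from the TSS, ran the other way, gained by 1.25 in MSCs and at 0.05 in NIH3T3. Its difference of -1.20 (SE 0.29) lost its call in 9 of the alternatives.

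The other named windows with opposite calls ran the other way, gained in MSCs and lost in NIH3T3. Near Adh7, an alcohol dehydrogenase that oxidises retinol, the window at chr3:138210362-138210907 had 25.4, 24.0 and 36.4 counts in MSC controls and 90.8, 82.7 and 111 with CK666. The NIH3T3 values were 92.8, 68.6 and 90.0 in controls and 24.6, 42.8 and 36.0 with CK666. The counts with CK666 were outside the control range in both cell types, at a log2 change of 1.73 in MSCs, -1.24 in NIH3T3 and a difference of -2.97 (SE 0.34, edgeR adjusted p = 2.0e-09). A window in an intron of Bmx, a non-receptor tyrosine kinase, rose from 70.1 to 97.1 counts to 196 to 249 in MSCs and fell from 188 to 222 to 73.7 to 106 in NIH3T3. Its difference was -2.59 (SE 0.23). A window 11198 bp from Stam2, which sorts ubiquitinated receptors at endosomes, changed by 1.18 in MSCs and -1.10 in NIH3T3, a difference of -2.28 (SE 0.26).

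**Figure D2:**
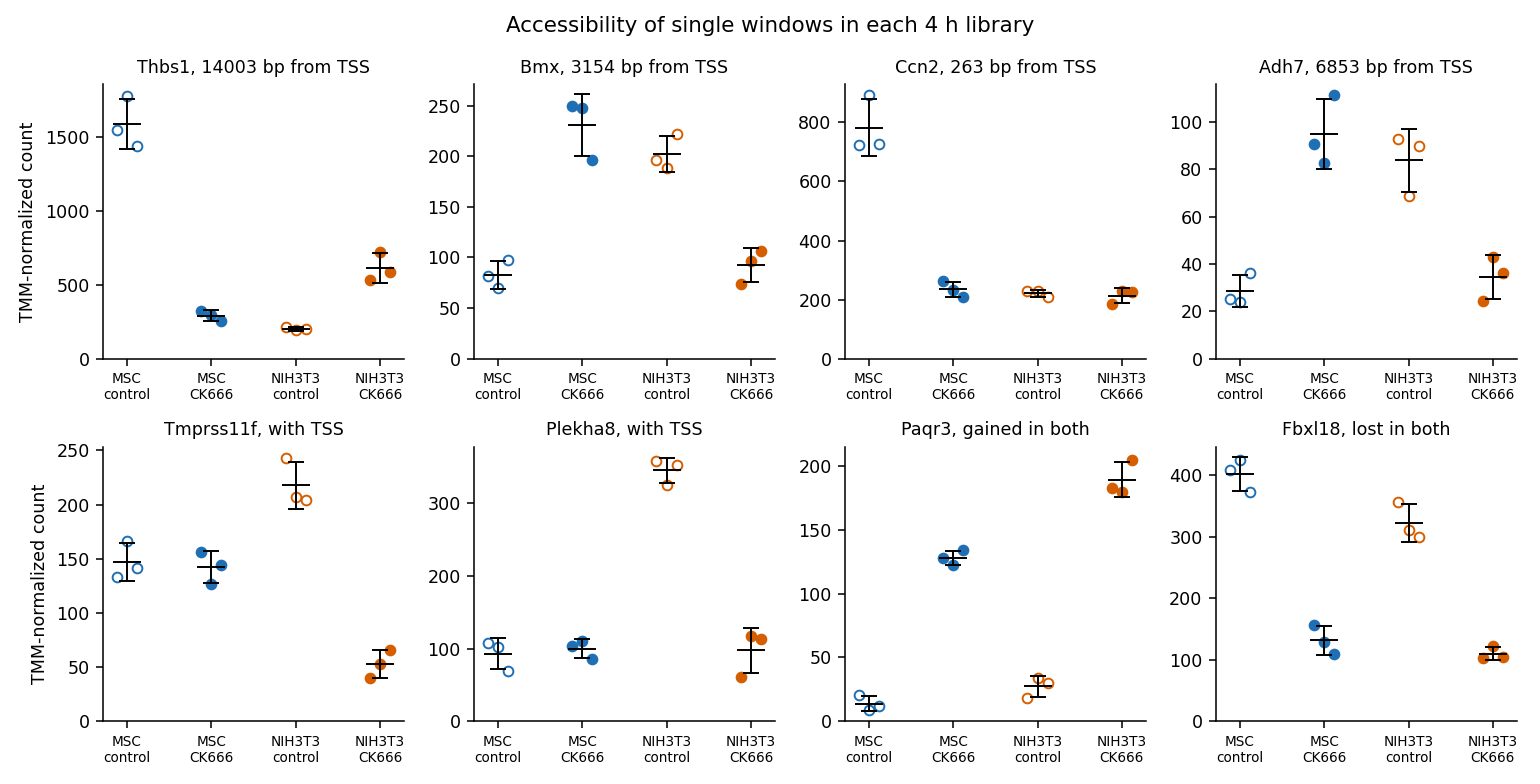
TMM-normalised count (y axis, from 0) of single windows in each of the 12 libraries (open points control, filled points CK666), by group on the x axis, with the mean and SD of 3 libraries as bars. At Thbs1 the MSC libraries fall from between 1441 and 1779 to between 253 and 325 while the NIH3T3 libraries rise from between 192 and 217 to between 531 and 726.

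Windows that contain a TSS took a smaller part in the difference. They made up 9.47% of the windows described, 4.17% of those above and 1.49% of those below. Of the TSS windows named by rule, the largest difference upwards was at Tenm4, a teneurin adhesion receptor. It had 46.7, 34.0 and 35.4 counts in MSC controls, 87.9, 83.6 and 84.5 in MSCs with CK666, 57.2, 47.8 and 62.2 in NIH3T3 controls and 327, 451 and 435 in NIH3T3 with CK666. Both cell types gained accessibility here, by log2 1.14 and 2.87, and the difference of 1.73 (SE 0.27) had an edgeR adjusted p of 5.2e-06. The window at the start of Ppp1r15a, which encodes the GADD34 subunit that recruits a phosphatase to eIF2alpha in the stress response, changed by 0.92 in MSCs, below the fold limit, and by 2.55 in NIH3T3. Its counts were 37.4 to 46.7 and then 77.3 to 86.0 in MSCs, and 16.2 to 18.2 and then 84.4 to 113 in NIH3T3. The NIH3T3 control mean was 17.2, and the window met the limit of 20 there through its CK666 libraries. At Dlgap3, a scaffold protein of synapses, counts overlapped in MSCs (81.9 to 101 and 76.0 to 110) but not in NIH3T3 (20.1 to 33.0 and 53.8 to 101), a difference of 1.65 (SE 0.33). At Apol8, a member of the apolipoprotein L family, the MSC counts fell from 240 to 269 to 113 to 139 (log2 -0.99, just short of the fold limit), while NIH3T3 counts were 105 to 125 in controls and 158 to 187 with CK666, a change that did not pass its own test. The difference was 1.54 (SE 0.21).

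At the TSS windows with the response below, the change was in NIH3T3. At Tmprss11f, a membrane serine protease, the counts were 133, 166 and 142 in MSC controls and 156, 127 and 144 with CK666, which overlap. In NIH3T3 they were 243, 207 and 204 in controls and 39.9, 52.7 and 66.1 with CK666, a log2 change of -2.00. The difference was -1.95 (SE 0.24, edgeR adjusted p = 1.3e-08). Plekha8, a lipid transfer protein of the Golgi, had a difference of -1.89 (SE 0.24). Clec2h, a C-type lectin, had -1.63 (SE 0.17), and Calr3, a calreticulin of the testis, -1.49 (SE 0.29). In each of these 4 windows the NIH3T3 groups did not overlap and the MSC change was between -0.05 and 0.36.

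Besides Thbs1, the named windows with no TSS and the response above had few counts in untreated NIH3T3. Those of Hdac4, Map2k1 and Slc35b4 had control means of 9.28, 12.7 and 16.3 there, and met the limit of 20 through their CK666 libraries. Near Slc35b4, a nucleotide sugar transporter, the NIH3T3 controls had 11.9, 20.8 and 16.3 counts and the CK666 libraries 84.4, 103 and 130. In MSCs the same window had 136 to 173 and then 122 to 142 counts, and the difference was 2.90 (SE 0.30). In an intron of Hdac4, a class IIa histone deacetylase, counts rose from 8.64 to 10.5 to 58.3 to 126 in NIH3T3 and from 93.1 to 116 to 191 to 240 in MSCs, so that both cell types gained, at a difference of 2.42 (SE 0.35). Near Map2k1, the kinase MEK1, the MSC change was 0.67, which did not pass its test, and the NIH3T3 change 3.07. In an intron of Peak1, a pseudokinase of the cytoskeleton, MSC counts fell from 264 to 329 to 148 to 166 and NIH3T3 counts rose from 24.3 to 45.3 to 68.1 to 106, a difference of 2.31 (SE 0.26).

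The windows without a TSS and with the largest response below were lost in NIH3T3. An intronic window of Uggt1, which senses misfolded glycoproteins, had 203, 178 and 222 counts in NIH3T3 controls and 33.8, 29.7 and 34.0 with CK666. In MSCs it had 111 to 149 and 132 to 166 counts, and the difference was -2.77 (SE 0.26, edgeR adjusted p = 1.3e-12). An intronic window of Mphosph8, a reader of methylated histone H3, went from 283 to 334 counts to 30.7 to 79.1 in NIH3T3, a difference of -3.02 (SE 0.31). Near Nelfcd, a subunit of the negative elongation factor, NIH3T3 counts fell from 148 to 163 to 34.0 to 48.3 while MSC counts went from 29.0 to 53.6 to 69.2 to 97.1, a log2 change of 0.97. In an intron of Slc25a24, a mitochondrial carrier, the NIH3T3 change was -2.22 and the MSC change 0.64, which did not pass its test. Apart from the Thbs1 window with the response below, every window with a difference named up to here kept its call under each alternative run for it.

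For contrast, some windows changed in the same direction in both cell types without a call of the difference. An intronic window of Paqr3, a membrane protein of the Golgi, was gained by 3.20 in MSCs and 2.77 in NIH3T3, with a difference of -0.43 (SE 0.36). Its counts were 9.01 to 20.3 and then 122 to 134 in MSCs, and 18.4 to 33.9 and then 180 to 205 in NIH3T3. The MSC control mean was 13.8, and the window met the limit of 20 there through its CK666 libraries. An intronic window of Arpc5l, a subunit of the Arp2/3 complex itself, was gained by 2.27 and 2.37, with a difference of 0.10 (SE 0.34). The window beside Fbxl18 that holds a CArG box was lost, at -1.61 and -1.55, with a difference of 0.07 (SE 0.20), and it ends 3466 bp from the 3′ end of Actb. A window 3469 bp from the Ccn2 TSS was lost in both, at -2.48 and -1.57. Its difference of 0.91 (SE 0.20, edgeR adjusted p = 0.0022) fell short of the fold limit alone, and it was called in 5 of the alternatives.

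Counts were also summed per gene over the windows whose nearest TSS, within 50 kb, was that gene's. Of 17327 genes, 90 had the NIH3T3 response above (0.519%) and 70 below (0.404%). Of these, 63 and 35 rested on a single window. Without the fold limit 1310 and 2098 genes passed. Of genes with 3 or more windows, Fat2, a large protocadherin, had the largest difference with the NIH3T3 response above, at 1.33 (SE 0.12). Its sums were 675 to 826 in MSC controls, 454 to 544 in MSCs with CK666, 345 to 400 in NIH3T3 controls and 618 to 668 in NIH3T3 with CK666. Thbs1 followed with 1.32 (SE 0.07) over 15 windows. Apol8 had 1.21 and Ttr, the thyroid hormone carrier transthyretin, 1.21. Ppp1r15a, with 1.20 (SE 0.18), and Thbs1 were the only genes of the pathway lists below to be called at this level. On the other side Bmx had -1.40 (SE 0.15), Fgfr1op, a centrosomal protein, -1.27, Rnf138rt1 -1.25 and Zfp41, a zinc finger protein, -1.20 (SE 0.08). With windows within 5 kb of a TSS alone, Thbs1, Fgfr1op and Rnf138rt1 were no longer called.

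The gene with the most windows above was Cald1, which encodes the actin-binding protein caldesmon. Of its 41 windows, 10 were above and 0 below. Summed over the gene, counts fell in MSCs from 9443 ± 310 to 5860 ± 324 (SD, n = 3) and were 5859 ± 388 and 5942 ± 309 in NIH3T3, a difference of 0.71. Akap2, an anchor of protein kinase A, had 5 of 30 windows above. Below, Hhat, which attaches palmitate to hedgehog proteins, had 7 of 28 windows and 1 above, and Rin2, a Rab5 exchange factor, 5 of 27. Rin2 changed by 0.18 in MSCs and -0.55 in NIH3T3. Of all windows within 50 kb of a TSS, 0.89% were above and 1.85% below. The genes of this paragraph were picked for their called windows, and windows near each other are not independent, so that these counts are a description.

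Near targets of MRTF and SRF more windows were called lost in MSCs than in NIH3T3. The 27 genes had 356 windows within 50 kb, of which 16 were above (4.49%) and 4 below (1.12%), beside 0.89% and 1.85% of all 100416 windows within 50 kb of a TSS. The median response was -0.28 in MSCs and -0.14 in NIH3T3, and the median difference was 0.18 beside -0.07 for all such windows. The single responses had list medians of -0.32 to -0.21 in MSCs and -0.23 to -0.05 in NIH3T3, ranges that overlap. The median difference stayed positive, at 0.12 to 0.32, under each scaling and without NIH3T3 CK666 replicate 1. In MSCs 27 of these windows were lost (7.58%, beside 0.461% of all such windows) and 0 gained. In NIH3T3 15 were lost (4.21%, beside 2.39%) and 7 gained (1.97%, beside 1.92%). Of the 16 windows above, 10 were those of Cald1. At a window 13176 bp from Acta2, smooth muscle actin, MSC counts fell from 238 to 290 to 49.4 to 58.3, whereas NIH3T3 counts were 85.3 to 110 in controls and 59.3 to 115 with CK666, which overlap. Its difference was 2.07 (SE 0.26, edgeR adjusted p = 2.4e-08). The Cald1 TSS window fell from 1133 to 1296 to 515 to 641 in MSCs and was at 1113 to 1222 and 913 to 1268 in NIH3T3. That difference, 1.02, was near the fold limit and lost its call in 9 of the alternatives. A window in Myh9, non-muscle myosin, had 2.09, without a call once NIH3T3 CK666 replicate 1 was left out. With an NIH3T3 control mean of 17.8, it met the limit of 20 through its CK666 libraries. A window near Fhl2, a LIM protein, had 1.45. Filip1l and Pdlim5 had windows below, at -1.23 each. Pdlim5 also had a window above, 25454 bp from its TSS, at -1.19 in MSCs and -0.17 in NIH3T3, and that difference of 1.02 (SE 0.24) lost its call in 12 of the alternatives.

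Targets of YAP and TEAD moved both ways. The median response was -0.16 in MSCs and -0.10 in NIH3T3, and the median difference was 0.09 beside -0.07 for all windows within 50 kb of a TSS. That difference stayed positive, at 0.03 to 0.19, under each scaling and without NIH3T3 CK666 replicate 1. The single responses had list medians of -0.18 to -0.08 in MSCs and -0.21 to -0.02 in NIH3T3, ranges that overlap. Of 487 windows near 22 genes, 6 were above (1.23%) and 10 below (2.05%), near the shares of all windows. Ccn2, a matricellular growth factor, had 2 windows above. The one 2844 bp from the TSS fell from 206 to 257 to 34.2 to 42.2 in MSCs and from 92.8 to 107 to 55.3 to 58.0 in NIH3T3, a difference of 1.85 (SE 0.27). The one 263 bp from the TSS fell from 725 to 893 to 209 to 262 in MSCs, while NIH3T3 values overlapped at 208 to 229 and 184 to 230. At the TSS of Ankrd1, an ankyrin repeat protein of muscle, MSC counts fell from 58.9 to 64.7 to 15.3 to 28.7, and NIH3T3 counts overlapped at 422 to 457 and 362 to 519. A window near Lats2, the kinase that restrains YAP, was gained in NIH3T3 by 1.46. Amotl2, an angiomotin that binds YAP, had a window below at -1.38 and Ptpn14, a phosphatase that binds YAP, at -1.33.

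Near genes of the extracellular matrix, 8 of 299 windows were above (2.68%) and 4 below (1.34%), beside 0.89% and 1.85% of all windows within 50 kb of a TSS. The median difference was 0.14, beside -0.07 for all windows within 50 kb of a TSS, and ranged from 0.09 to 0.29 over the scalings. The single responses had list medians of -0.21 to -0.01 in MSCs and -0.12 to 0.08 in NIH3T3, ranges that overlap. Besides Thbs1, the windows above included those near Lox, the enzyme that cross-links collagen, with differences of 1.97 (SE 0.34) and 1.42 (SE 0.18). At the second of these, MSC counts fell from 733 to 1001 to 200 to 247 and NIH3T3 counts from 234 to 280 to 172 to 176. Near Sparc, a collagen-binding protein, a window was lost in NIH3T3 only, with a difference of -1.26 (SE 0.23). In the list of TGF-beta signalling, 5 of 273 windows were above (1.83%) and 4 below (1.47%), beside the same 0.89% and 1.85%.

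Among focal adhesion genes 9 of 441 windows were above (2.04%) and 6 below (1.36%), beside 0.89% and 1.85% of all windows within 50 kb of a TSS. Windows near the adaptors Tns3 and Tns1 were gained in NIH3T3, with differences of 2.16 (SE 0.31) and 1.74 (SE 0.25). The Tns3 window went from 10.5 to 22.7 to 73.6 to 116 counts in NIH3T3. Its NIH3T3 control mean was 17.1, and it met the limit on mean counts there through its CK666 libraries. In MSCs the Tns3 window was at 140 to 192 and 177 to 206. Near the integrin Itgb1 a window was lost in MSCs, from 371 to 376 to 134 to 172 counts, with a difference of 1.14 (SE 0.20). Near Itgb3 a window was gained in MSCs by 1.31 and had -0.78 in NIH3T3, which did not pass its test. A window near Fermt2, the integrin activator kindlin-2, fell in NIH3T3 from 257 to 311 to 109 to 132.

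No window of the immediate early genes, the AP-1 family, the aryl hydrocarbon receptor (AhR) targets or the Arp2/3 complex itself was above, and 5 of 203 (2.46%), 4 of 130 (3.08%), 3 of 48 (6.25%) and 4 of 84 (4.76%) were below. The immediate early and AP-1 lists share genes, and the windows below near Atf3 and Jun count in both. The shares below lie above the 1.85% of all windows within 50 kb of a TSS but rest on 3 to 5 windows each. Of all such windows 0.89% were above. The median difference was 0.08 for the immediate early genes, 0.02 for the AP-1 family, -0.11 for the AhR targets and -0.09 for the Arp2/3 complex. Over the scalings that of the AP-1 family and of the Arp2/3 complex changed sign. Relative to the median of all windows within 50 kb of a TSS, it was 0.09 to 0.15 for the AP-1 family and -0.05 to -0.01 for the Arp2/3 complex. Summed per gene, Fosb had a difference of 0.55 (SE 0.08), Dusp1 0.51 (SE 0.09), Egr2 0.43 (SE 0.07) and Ier3 0.34 (SE 0.08), all below the fold limit and with edgeR adjusted p of at most 9.3e-04. Klf6 had 0.27 (SE 0.07), while Atf3 went the other way, at -0.24 (SE 0.07). These genes were named after their values were seen. The immediate early genes with windows called below were Atf3, Egr1 and Jun. Near Egr1, an early growth response factor, a window fell from 143 to 158 to 55.3 to 65.9 in NIH3T3 and was at 213 to 317 and 288 to 329 in MSCs, a difference of -1.55 (SE 0.22). Near Jun a window had -1.37, without a call relative to the surrounding 1 Mb and without MSC control replicate 2. In an intron of Nqo1, a quinone reductase, the difference was -1.58. Actr3, which encodes the Arp3 subunit, had 3 windows below, and the strongest fell from 358 to 526 to 130 to 200 in NIH3T3 while MSC counts overlapped at 35.5 to 59.1 and 52.6 to 63.8. Arpc1b had 1 window below at -1.25. Near the factors that activate Arp2/3, 1 of 115 windows was above (0.870%, beside 0.89%) and 3 were below (2.61%, beside 1.85%). Among these factors Jmy had a window lost in NIH3T3 only, at -1.20, which lost its call relative to the surrounding 1 Mb.

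In the remaining lists few windows differed. Of all windows within 50 kb of a TSS, 0.89% were above and 1.85% below. The genes that the study used for adipogenesis had 1 of 109 windows above (0.917%) and 5 below (4.59%). Their median difference was -0.20, beside -0.07 for all windows within 50 kb of a TSS. It stayed negative, at -0.26 to -0.09, under each scaling. The single responses had list medians of -0.04 to 0.09 in MSCs and -0.23 to -0.02 in NIH3T3, ranges that overlap. That list was taken from the study and is not independent evidence of a direction. In an intron of Adhfe1, an alcohol dehydrogenase, NIH3T3 counts fell from 50.7 to 64.1 to 6.14 to 17.6 and MSC counts were 135 to 156 and 149 to 158. Beside Cebpa, a driver of fat cell differentiation, a window was gained in NIH3T3 from 12.4 to 28.7 to 44.0 to 75.2, with a difference of 1.56. A second window, 2566 bp from the Cebpa TSS, was gained by 1.63 in MSCs and had 0.41 in NIH3T3, and its difference of -1.23 (SE 0.29) lost its call in 7 of the alternatives. Summed over its 15 windows, Cebpa had a difference of -0.26 (SE 0.08). The study's osteogenic genes had 0 of 87 above and 1 below (1.15%). Of 111 windows near genes of the unfolded protein response, 4 were above (3.60%) and 1 below (0.901%). In MSCs 4 of these windows were gained (3.60%, beside 0.430% of all such windows) and 0 lost, and in NIH3T3 12 were gained (10.8%, beside 1.92%) and 1 lost. The median response was 0.10 in MSCs and 0.25 in NIH3T3, and the median difference of 0.04 changed sign under DESeq2's scaling and without NIH3T3 CK666 replicate 1. Relative to the median of all windows within 50 kb of a TSS, that difference was 0.05 to 0.12 over these settings. Ern1, a sensor of unfolded proteins, had a window gained in NIH3T3 only, and Trib3, a pseudokinase, one gained by 1.96 in MSCs and at 0.79 in NIH3T3, below the fold limit. The Trib3 difference lost its call relative to the surrounding 1 Mb and with the openness trend removed. Of 184 windows near cell cycle genes, 0 were above and 2 below (1.09%), near Mki67 (-1.23) and Mcm6 (-1.12), and each lost its call in 1 alternative.

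**Figure D3:**
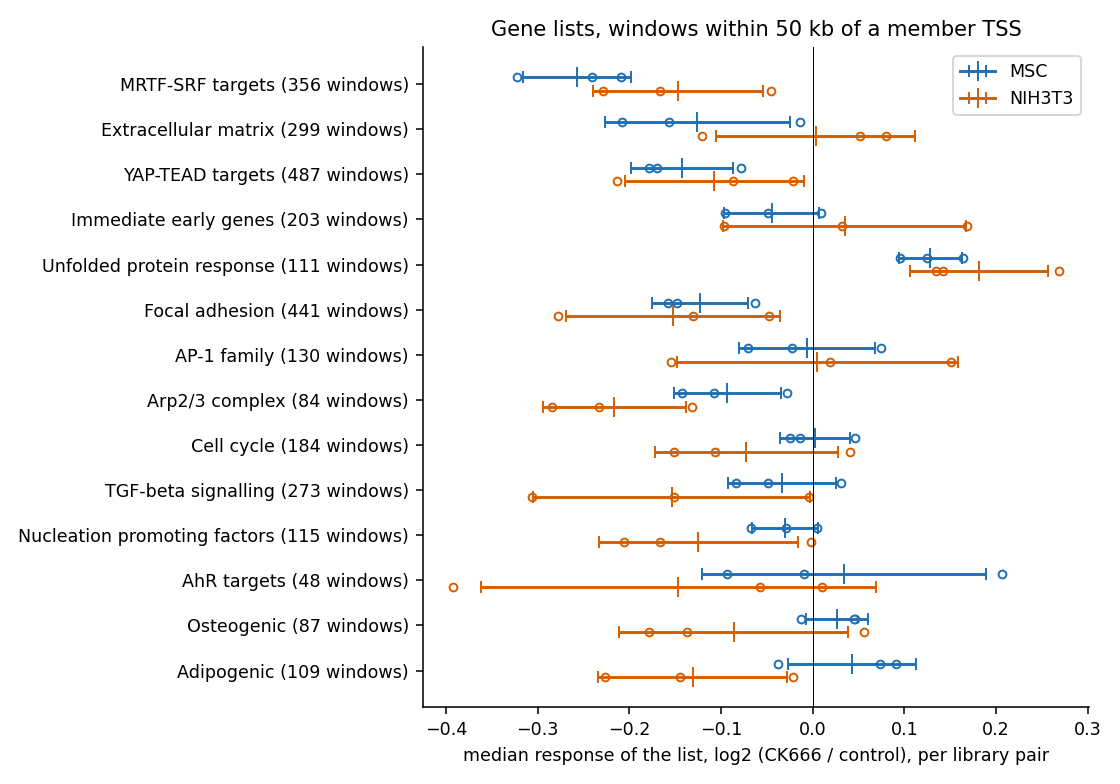
Median log2 response to CK666 over the windows of each gene list (x axis) in MSCs and NIH3T3. Open points are the 3 single responses of CK666 and control libraries of the same number, and the bar is their mean ± SD. MRTF-SRF targets have the lowest mean in MSCs, with points that overlap those of NIH3T3, and the unfolded protein response lies above 0 in all 6 single responses.

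AP-1 letters marked the windows with a lower response in NIH3T3 and TEAD letters those with a higher one. The central 300 bases held TGANTCA in 54.7% of windows below (95% Wilson interval 52.9 to 56.4), in 29.8% of those with no call and in 23.5% of those above (21.2 to 25.9). The share was 30.2% in all windows described. GGAATG was in 35.7% of windows above (33.1 to 38.3), 21.1% of those with no call and 16.8% of those below (15.5 to 18.1). The letters were searched on both strands, and an AP-1 and a TEAD match can share at most the bases CA or TG. Without windows at a TSS the AP-1 shares were 54.9%, 32.2% and 24.2%. Under each alternative fit the AP-1 share of windows below was 53.8% to 56.7% and the TEAD share of windows above 34.1% to 37.6%. The intervals cover counting error alone, and windows near each other are not independent.

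The CArG box followed shared loss. It was in 27.7% of the 83 windows lost in both cell types without a difference (19.2 to 38.2), in 1.63% of windows with no call and in 4.84% of the 186 windows lost in MSCs with the NIH3T3 response above. Of the 283 windows gained in both without a difference, 0.707% held it, and 17.7% held AP-1 letters. The other 7 motifs searched (RUNX TGTGGT, NF-Y CCAAT, AhR core GCGTG, E-box CACGTG, SP1 GGGCGG, C/EBP TTGCNNCAA and CTCF AGGGGGC) were in 2.55% to 33.6% of windows above or below. The share farthest from that of all windows was RUNX in windows above, at 32.4% beside 26.4%.

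Over all windows and not just the called ones, AP-1 and TEAD letters went with different responses in the cell types. The median NIH3T3 response of windows with AP-1 letters minus that of windows without was -0.19, -0.11 and -0.16 in the 3 single responses. The mean was -0.155 ± 0.040 (SD, n = 3) in NIH3T3 and -0.014 ± 0.007 in MSCs. For TEAD letters it was -0.048 ± 0.006 in MSCs and 0.034 ± 0.014 in NIH3T3. For the CArG box it was -0.105 ± 0.011 in MSCs and -0.091 ± 0.011 in NIH3T3. The comparison was also split by the difference in openness between the NIH3T3 and the MSC controls, without windows at a TSS. This split does not hold the level of openness constant, and the part of that level in the motif comparison was not tested. Where the controls differed by at most 1 on the log2 scale, the median NIH3T3 response was -0.20 with AP-1 letters (26975 windows) and -0.06 without (62735). Where MSC controls were more open it was -0.10 and 0.11, and where NIH3T3 controls were more open -0.43 and -0.32. With and without TEAD letters, the median NIH3T3 response was -0.08 and -0.11 where the controls differed by at most 1. It was 0.09 and 0.03 where MSC controls were more open, and -0.34 and -0.38 where NIH3T3 controls were more open.

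**Figure D4:**
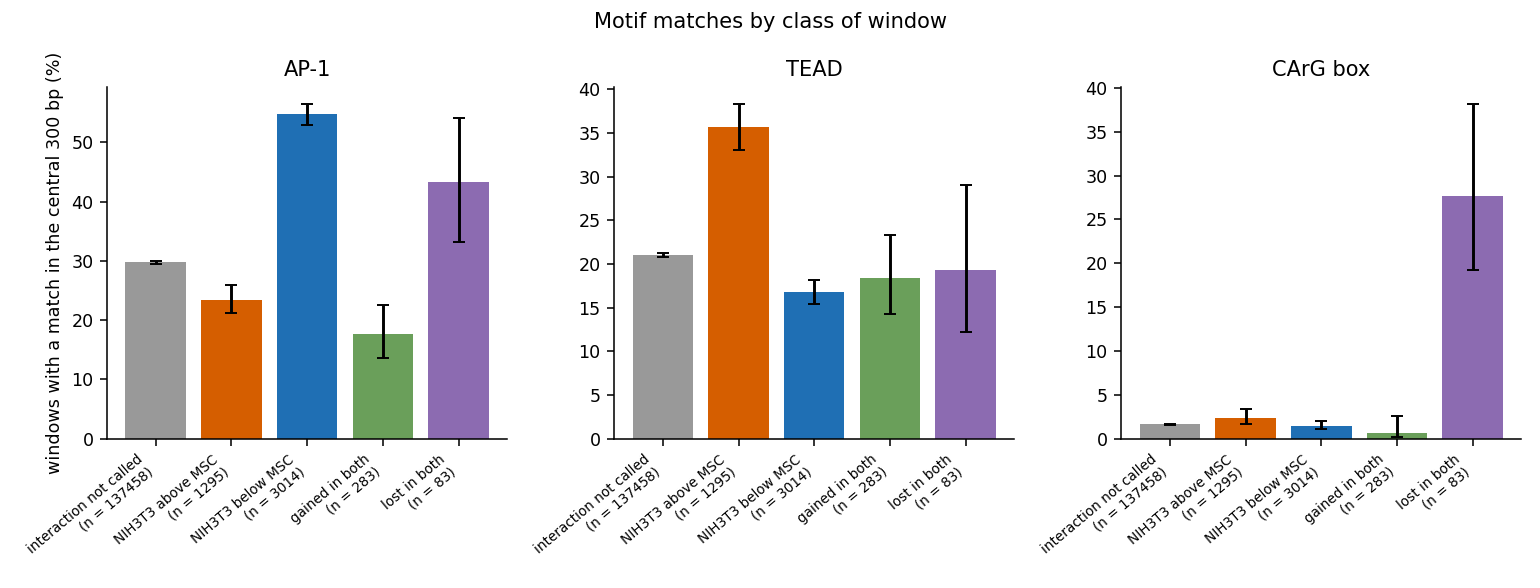
Share of windows (y axis, percent) whose central 300 bp hold AP-1, TEAD or CArG letters, by class of window on the x axis, with 95% Wilson intervals. AP-1 stands at 54.7% in windows below, TEAD at 35.7% in windows above and the CArG box at 27.7% in windows lost in both cell types.

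The response followed baseline openness in NIH3T3 and hardly in MSCs. Openness was the log2 CPM per kb of a control library, in 10 bins of 14176 or 14177 windows, and the response was taken against the other control libraries so that the axes share none. In NIH3T3 the median response went from 0.30 in the least open bin to -0.26 in the most open one, a fall of 0.56. In MSCs it went from 0.05 to -0.05. The limit of 20 counts includes the CK666 libraries, so that weakly open windows entered more readily when they were gained. With windows of the whole table chosen only on the control libraries that set the baseline, the median went from 0.22 to -0.26 in NIH3T3 and from 0.01 to -0.05 in MSCs. The slope in NIH3T3 was uneven between libraries: the single responses of numbers 1, 2 and 3 fell by 0.91, 0.13 and 0.63, beside 0.05, 0.14 and 0.13 in MSCs. NIH3T3 CK666 replicate 1, the shallowest library, had the steepest fall, and without it the median still went from 0.24 to -0.20. The share of counts in the windows described was 77.6%, 81.6% and 79.5% in the NIH3T3 CK666 libraries and 81.6% to 83.4% in their controls, so that the CK666 library with the lower share had the larger fall. Its part in the slope was not tested. The openness of the other cell type, which shares no library with the response, gave 0.13 to -0.21 for NIH3T3 and 0.05 to -0.06 for MSCs.

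The difference between the cell types followed the difference in baseline. From windows more open in MSCs to windows more open in NIH3T3, the median difference in response went from 0.05 to -0.29, and from 0.01 to -0.30 with windows chosen on the baseline libraries alone. The MSC response made up little of it, at -0.001 and -0.035 in the end bins, and the NIH3T3 response went from 0.04 to -0.33. Of the 16092 windows more open in NIH3T3 controls by over 1 on the log2 scale, 6.69% were below and 0.423% above. Of the 24788 more open in MSCs by that much, 2.07% were below and 3.02% above. Of the 100887 in between, 1.41% were below and 0.474% above. These classes used all 3 controls of each cell type and the calls used them too, so that shared libraries link these shares.

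**Figure D5:**
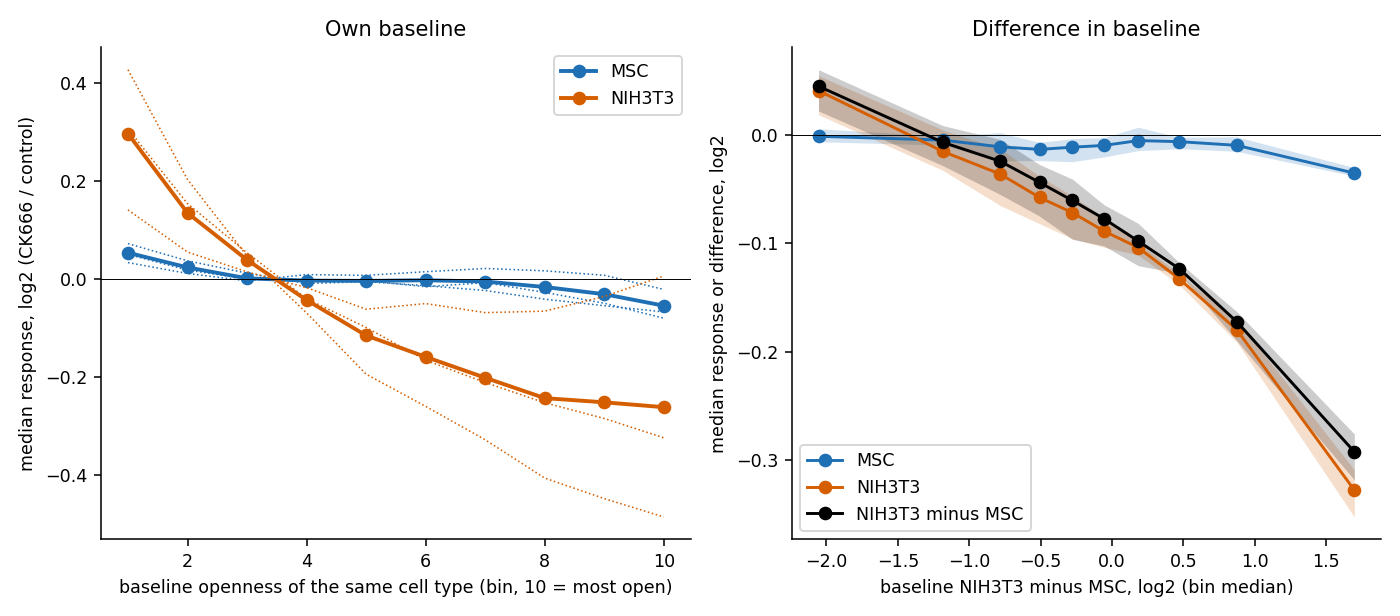
Left, median log2 response to CK666 (y axis) in 10 bins of baseline openness of the same cell type (x axis), with thin lines for single responses. Right, median response of each cell type and their difference against the log2 difference in baseline openness, with bands from the lowest to the highest choice of baseline library. NIH3T3 falls from 0.30 to -0.26 on the left while MSCs stay between 0.05 and -0.05.

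Medians of neighbouring windows also varied along the genome. In 1926 blocks of 1 Mb with 20 or more windows, the SD of the block medians of the difference was 0.19. It was 0.18 for the NIH3T3 response and 0.09 for the MSC response. How far the spread of single windows alone would give such values was not tested. The highest block was on chromosome 4 and holds Akap2 and Palm2, with 104 windows, a median difference of 0.60 and a median MSC response of -0.48. In that block 10 windows were above and 0 below. A block on chromosome 16 that holds Lpp, a focal adhesion protein, and Bcl6 had an MSC median of -0.51 and a difference of 0.45. The lowest block, on chromosome 7 with Mob2 and Ins2, had -0.74 and an NIH3T3 median of -0.58. In all 36 blocks lay above 0.3 and 256 below -0.3. Scaling by total counts moved the median difference over all windows by 0.106, so that the counts on each side depend on the scaling. By GC content, 1.36% of windows in the lowest of 5 equal classes and 0.413% in the highest were above, and 2.42% and 1.17% below.

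The MSC side of the difference was followed in other libraries, the 3 CK666 and 3 untreated MSC libraries at 24 h, which took no part in the calls. All windows with a 24 h counterpart had a median response of -0.02 there, 48.1% had a positive value and 1.92% were called gained. Windows above had -0.34 at 24 h (SD of 3 single responses 0.03, 1244 windows) and windows below 0.08 (SD 0.04, 2931 windows). The 174 windows lost in MSCs with the NIH3T3 response above had -0.82, and 10.3% of them had a positive value. The 85 gained in MSCs with it below had 0.93, and 91.8% had a positive value. The windows gained in NIH3T3 with the response above had a median of -0.06 in MSCs at 24 h, and those lost in NIH3T3 with the response below had -0.04. Both sets were chosen for a change that MSCs did not share at 4 h. Windows gained in both cell types at 4 h had 2.19, and 87.2% of them were called gained.

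Of the windows with opposite calls, Thbs1 had -2.61 in MSCs at 24 h (edgeR adjusted p = 3.7e-27), Adh7 2.11 (adjusted p = 4.4e-08), Stam2 1.18 and Bmx 0.73. Each had the sign of its MSC response at 4 h. The windows named for contrast had 1.87 at Paqr3, 2.43 at Arpc5l, -2.24 at Ccn2 and -0.52 at Fbxl18. No 24 h libraries of NIH3T3 were analysed here.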

How the data were processed

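ATAC-seq (Omni-ATAC) libraries of mouse MSCs and NIH3T3 cells, untreated or 4 h after CK666, were analysed, with 3 libraries in each of 4 groups. The authors processed the reads with PEPATAC, bowtie2 and MACS2 (mm10), merged peaks over replicates into consensus windows and deposited raw read counts per window. No tool versions were given in the sources used here. The 9 columns of siRNA libraries hold other experiments and were not used.

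Counts were fitted with edgeR 4.0.16 in R 4.3.3 (TMM scaling, filterByExpr, quasi-likelihood test), with all 12 libraries in one model, and p-values were adjusted by Benjamini-Hochberg over all 368794 windows tested. A call needed an adjusted p under 0.01 and a log2 value beyond 1. Normalised counts are counts scaled to the mean TMM library (26.88 M). Of 100 simulated differences each, the fit recovered 56 at a log2 size of 1.5 and 75 at 2, with 0 false calls. The simulation gave the other windows no response to CK666 and no shifts with openness or by 1 Mb. Its 0 false calls therefore do not cover such shifts or the choice of scaling in the real libraries. Shares carry 95% Wilson intervals. The count total limits precision: NIH3T3 CK666 replicate 1 had less than the others. Windows were assigned to the nearest TSS of GENCODE vM21 within 50 kb, and openness used a pseudocount of 0.2 CPM. Sequences came from the RefSeq genome of GRCm38, the build of mm10. DESeq2 1.42.0, Python 3.11.15, numpy 2.4.6, pandas 2.3.3 and scipy 1.17.1 served for alternatives and summaries, and matplotlib 3.10.9 for plots.

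Windows were named by the nearest TSS of a protein-coding gene within 50 kb, passing over symbols of predicted genes. Named windows were called in the difference, had a mean of at least 50 normalised counts in each cell type and were ranked by the size of the difference: 4 TSS windows and 5 other windows on each side, and 4 windows with opposite calls. For contrast, the 2 windows gained and the 2 lost in both cell types with the largest smaller response were taken. Among genes, the 4 on each side with 3 or more windows and every listed gene called were named. Windows named within gene lists were chosen after their values were seen. The windows described and the gene lists were chosen with earlier results of these data known. Alternatives were other scalings, filters, DESeq2, a replicate block, trends on GC and openness, and leaving out each library. Same-numbered libraries did not deviate together (correlations -0.077 to 0.029). Some windows near listed genes are counted but not reported here by name.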

Additional observations from a re-analysis of the deposited data

Results flagged for a closer look

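The response to CK666 differed between the cell types, by the test of the difference itself in edgeR's quasi-likelihood fit, at 1295 windows with the NIH3T3 response above and 3014 with it below. The values of the windows and genes named in the report follow, each in log2 units, with a gene repeated where more than 1 of its windows was named.

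The NIH3T3 log2 response minus the MSC response was, at single windows above, Tenm4 1.73, Dlgap3 1.65, Ppp1r15a 1.64, Apol8 1.54, Thbs1 4.05, Slc35b4 2.90, Hdac4 2.42 and Map2k1 2.40. Further windows above had differences of Peak1 2.31, Acta2 2.07, Cald1 2.12, Cald1 1.02, Myh9 2.09, Fhl2 1.45, Ccn2 1.85 and Ccn2 1.69. Near listed genes the difference was Ankrd1 1.36, Lats2 1.89, Thbs1 2.31, Thbs1 2.02, Thbs1 1.70, Lox 1.97 and Lox 1.42. Other windows near listed genes had Tns3 2.16, Tns1 1.74, Itgb1 1.14, Ern1 1.27, Cebpa 1.56 and Pdlim5 1.02. At single windows below, the NIH3T3 minus MSC difference was Tmprss11f -1.95, Plekha8 -1.89, Clec2h -1.63, Calr3 -1.49, Mphosph8 -3.02, Adh7 -2.97, Nelfcd -2.89 and Slc25a24 -2.86. Further windows below had differences of Uggt1 -2.77, Bmx -2.59, Stam2 -2.28, Filip1l -1.23, Pdlim5 -1.23, Amotl2 -1.38, Ptpn14 -1.33 and Sparc -1.26. Others below, near listed genes, had Itgb3 -2.08, Fermt2 -1.49, Jun -1.37, Egr1 -1.55, Nqo1 -1.58, Actr3 -1.57, Arpc1b -1.25 and Jmy -1.20. The last windows below had Trib3 -1.18, Adhfe1 -2.05, Mki67 -1.23, Mcm6 -1.12, Thbs1 -1.20 and Cebpa -1.23.

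With counts summed per gene, the difference was Apol8 1.21, Fat2 1.33, Ppp1r15a 1.20, Thbs1 1.32 and Ttr 1.21 above, and Bmx -1.40, Fgfr1op -1.27, Rnf138rt1 -1.25 and Zfp41 -1.20 below. The part of depth or of the NIH3T3 CK666 libraries in these differences was not tested beyond leaving out each library in turn.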

How the results depend on the processing

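Relative to 1295 windows above and 3014 below, scaling by total counts gave 1954 above, the windows described fitted alone 2449, and the openness trend removed, an alternative chosen after seeing the data, 2106 above and 1931 below. Relative to the surrounding 1 Mb, 1512 were below, with AP-1 letters in 56.7% of them. Without the fold limit 4992 were below. A minimum mean of 50 counts, which leaves fewer windows, gave 588 above. Leaving out each library gave 774 to 1283 above and 2283 to 4671 below, the highest without NIH3T3 CK666 replicate 2. MSC gains were 1833 without the fold limit and 231 at a mean of 50, and MSC losses 2601 and 295. NIH3T3 gains were 4823 and 669. NIH3T3 losses were 2529 with scaling by total counts, 14318 without the fold limit, 1985 at a mean of 50 and 3460 to 6630 without single libraries. The correlation of responses was 0.230 at a mean of 50. With the same controls on both axes, the fall over openness was -0.194 in MSCs and -0.459 for the difference, since shared libraries link the axes. With windows chosen on the baseline libraries, also an alternative chosen after seeing the data, the fall was -0.483 in NIH3T3. The 24 h median of windows above was -0.375 to -0.344 without single libraries. A replicate block, although the numbers do not pair the libraries, gave 999 above and 2548 below and shared 81.4% of the calls. Of the values for named windows and genes under these alternatives, 1430 kept their side of the threshold, 48 lost and 5 gained a call, and 0 reversed. Other causes of these shifts were not tested. Depth limits weak windows: the median SE of the difference was 0.33, and the simulated differences of log2 1.5 were recovered for 56 of 100.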
